A study of Mus musculus with 2 samples.

Results

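The genes described here are the 10 striated myosin light chain and myosin light chain kinase genes Myl1, Myl2, Myl3, Myl4, Myl6, Myl7, Mylk, Mylk2, Mylk3 and Mylk4. They were found by exact symbol in a table of 30385 gene entries, where each had 1 entry, and 6 of the 10 reached 50 reads in one or both libraries, the minimum for an entry to be called measured. The table comes from 5′RNA-seq, a polyA RNA sequencing method without fragmentation in which reads gather near transcript starts. It compared hearts of MHC403/+ mice (MHC403), which model hypertrophic cardiomyopathy through a missense mutation in the myosin heavy chain, with hearts of wild-type mice (WT). Both genotypes were of strain 129/SvEv and 8 to 16 weeks old, and all had received cyclosporine A (CsA, a calcineurin inhibitor) by subcutaneous injection for 2 weeks, in 2 daily doses of 15 mg per kg of body weight. No untreated heart was analysed here, so every difference is one between genotypes under CsA. The animals of a genotype were pooled into 1 library, and the sources used here give neither their number nor the chambers taken. With 1 library per genotype there is no replicate check and no test, so ratios compare these libraries and not the conditions. The 95% ranges given with ratios and shares are exact (Clopper-Pearson) intervals that cover counting error only.

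Each myosin head of the thick filament carries an essential and a regulatory light chain, which stiffen its lever arm. Myosin light chain kinases, activated by calcium and calmodulin, phosphorylate the regulatory chain and so raise the force that a given calcium level produces, and myosin phosphatase reverses this. Adult ventricle uses Myl2 as its regulatory and Myl3 as its essential chain, atrium uses Myl7 and Myl4, and Myl4 is also made in embryonic muscle. Mylk3 is the kinase best known for acting on Myl2 in heart.

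The start regions of 4 of these genes are shown because reads of this method are counted at starts and because these genes span the patterns described here: Myl3 (lower in MHC403), Myl7 (few reads in both libraries), Myl6 (higher in MHC403) and Mylk3 (a start-site score above 0, with 2 annotated starts). The sequences are RefSeq's, on GRCm38.p6, given 5′ to 3′ on the strand of the gene up to the base before its RefSeq start, except that the Myl3 stretch stops at its GENCODE start, which lies upstream of the RefSeq one. Capitals mark the CArG box (the site of serum response factor), CATTCC (the core of the site of TEAD factors) and AGATAA (a form of the site of GATA factors), each searched on both strands.
Myl3, chr9:110763428-110763645, plus strand: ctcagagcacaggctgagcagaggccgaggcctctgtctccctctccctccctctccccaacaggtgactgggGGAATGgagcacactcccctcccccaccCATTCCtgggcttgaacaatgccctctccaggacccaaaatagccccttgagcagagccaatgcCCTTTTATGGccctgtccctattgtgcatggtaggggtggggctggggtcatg
Myl7, chr11:5898783-5899032, minus strand: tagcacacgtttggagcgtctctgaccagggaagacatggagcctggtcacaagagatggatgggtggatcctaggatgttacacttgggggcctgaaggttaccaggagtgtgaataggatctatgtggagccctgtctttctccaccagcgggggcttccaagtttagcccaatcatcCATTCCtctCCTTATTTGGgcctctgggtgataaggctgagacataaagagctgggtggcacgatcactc
Myl6, chr10:128493887-128494136, minus strand: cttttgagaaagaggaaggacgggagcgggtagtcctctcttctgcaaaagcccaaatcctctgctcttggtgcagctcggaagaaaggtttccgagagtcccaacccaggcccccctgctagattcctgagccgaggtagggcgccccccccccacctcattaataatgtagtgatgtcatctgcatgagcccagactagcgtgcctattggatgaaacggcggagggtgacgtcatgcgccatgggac
Mylk3, upstream start, chr8:85381042-85381291, minus strand: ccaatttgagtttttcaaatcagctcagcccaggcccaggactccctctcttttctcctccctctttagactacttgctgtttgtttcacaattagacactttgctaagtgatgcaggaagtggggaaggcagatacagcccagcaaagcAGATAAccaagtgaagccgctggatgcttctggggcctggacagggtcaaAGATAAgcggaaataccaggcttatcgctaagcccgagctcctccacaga
Mylk3, downstream start, chr8:85365325-85365574, minus strand: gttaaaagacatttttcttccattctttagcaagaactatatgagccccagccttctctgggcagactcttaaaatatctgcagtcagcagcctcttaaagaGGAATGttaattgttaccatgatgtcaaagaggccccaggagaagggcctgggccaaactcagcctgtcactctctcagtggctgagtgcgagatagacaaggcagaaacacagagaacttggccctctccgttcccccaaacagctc

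A CArG box lay 85 to 76 bases before the RefSeq start of Myl3, and another 61 to 52 bases before that of Myl7. Of 32851 mouse promoters, 1.47% had a CArG box in the 250 bases before the start, and 1.29% had one in the 218-base stretch that is shown for Myl3. CATTCC was found in the stretches of Myl3, Myl7 and the downstream start of Mylk3, and in 12.6% of all promoters. AGATAA occurred at 2 places in the stretch before the upstream start of Mylk3, and in 9.99% of all promoters. The Myl6 stretch held none of these letters in this window. A site of MEF2 factors and the letters TATAAA were searched as well and lay in none of the stretches shown. They occurred in 2.92% and 12.4% of all promoters, in the 250 bases before the start. These matches describe the letters only. The 15654 bases between the 2 starts of Mylk3 in the deposited table, which uses mm9, equal the distance between 2 of its GENCODE starts on GRCm38. RefSeq promoters of Myl2 and Mylk4 lay over 100 bases from any GENCODE M21 start of the gene (7762 and 2248 bases for the nearest), so none is shown for them. For the same reason a further RefSeq promoter of Myl6 is not shown, although it holds a CArG box 50 to 41 bases before its start. Of the 10 genes, 9 had a RefSeq promoter, 12 in all, of which 8 lay within 100 bases of a GENCODE start.

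The ventricular light chain genes were lower in the MHC403 library and the atrial ones had at most 31 reads in each library. The non-muscle essential chain Myl6 was higher, Mylk4 was far lower and Mylk3 was slightly lower. Of the 6 measured genes, 1 (Myl6) was at least 2-fold higher, 2 (Myl2 and Mylk4) at least 2-fold lower and 3 (Myl3, Mylk3 and Mylk) within 2-fold, against 26.1% higher and 2.43% lower of all 9507 measured entries. Scaling bears on this split, since the median measured entry had a log2 ratio of 0.57 with scaling to column totals. Median-of-ratios scaling, which sets the middle of the entries near 0, lowers every log2 ratio by 0.55 and gives 0 higher and 3 lower (Myl2, Mylk4 and Myl3), against 10.9% and 7.59% of all measured entries. The libraries held 5468677 reads (MHC403) and 5481123 reads (WT), which differ by 0.227%.

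**Figure D1:**
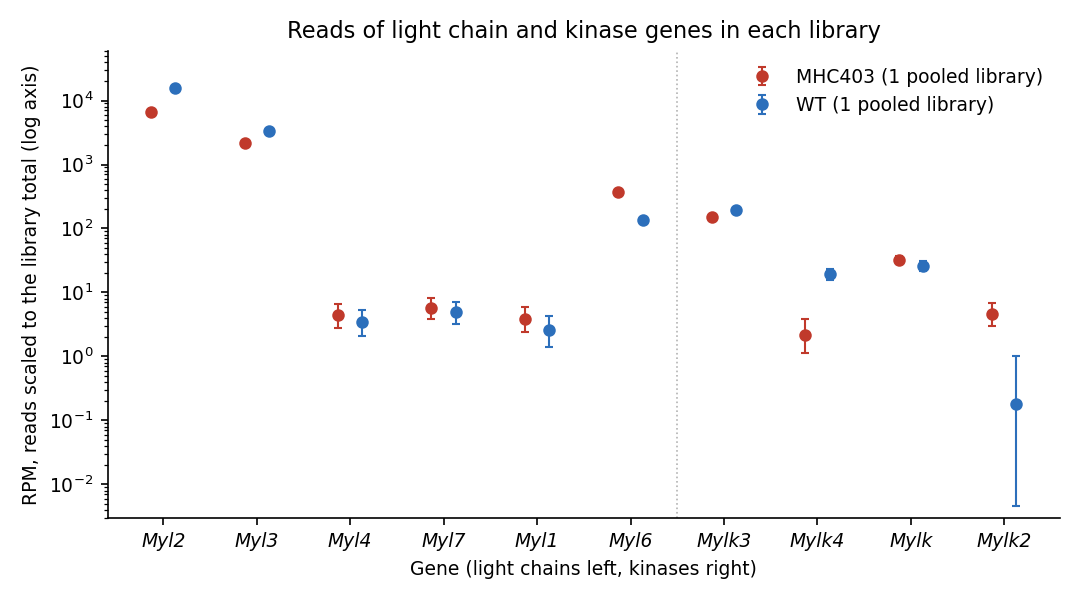
RPM (reads scaled to the library total, log axis) of the 10 genes in the MHC403 library (red, left of each pair) and the WT library (blue), with exact 95% counting intervals as bars; each genotype is 1 pooled library. Myl2 and Myl3 stand highest in both libraries and lower in MHC403, Myl4, Myl7 and Myl1 lie between 2.55 and 5.67 RPM with overlapping intervals, and Mylk4 and Mylk2 differ in opposite directions.

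Myl2, the ventricular regulatory light chain (chromosome 5, 122550989 to 122556863 on mm9), had 36100 reads in the MHC403 library and 86531 in the WT library. It made up 0.660% of all MHC403 reads (0.653 to 0.667) and 1.58% of all WT reads (1.57 to 1.59), so it was 2.39-fold lower (2.36 to 2.42). By reads it ranked 15th of all entries in MHC403 and 12th in WT. Among the 655 entries with a mean of at least 1000 reads, 14 had a lower ratio than Myl2, while 4.73% of the 655 were at least 2-fold lower and 16.2% higher by 2-fold or more. With median-of-ratios scaling its log2 ratio was -1.81 in place of -1.26.

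The alpha-myosin heavy chain gene Myh6, whose protein binds Myl2 and Myl3, had a ratio like that of Myl2. It had 55171 reads in MHC403 and 132965 in WT and was 2.40-fold lower (2.38 to 2.43). Myl2 supplied 39.6% of the reads of this pair in MHC403 and 39.4% in WT, and the ratio of Myl2 to Myh6 differed between the libraries by a factor of 1.01 (0.990 to 1.02), a value that does not depend on the scaling. Of the 36-base words in the first 400 bases of the Myh6 transcripts, 23.8% occur in transcripts of other genes, among them Myh7, so its reads are uncertain, while Myl2 shares none. The summed reads of 10 cardiomyocyte markers came to 31899 RPM in MHC403 and 29122 in WT, with a median log2 ratio of 0.21, and none of the 10 was at 0. Past 2-fold, 1 of these markers (Nkx2-5) lay higher in MHC403 and 0 lay lower. Under median-of-ratios scaling 0 lay higher and 2, Pln and Tnni3, lay lower. Among all measured entries, 26.1% lay higher and 2.43% lower by 2-fold with column totals, and 10.9% and 7.59% with median-of-ratios scaling. In bulk heart libraries such as these, fewer cells of a type and less RNA per cell cannot be told apart.

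Myl3, the ventricular and slow-muscle essential light chain (chromosome 9, 110666185 to 110672298), had 11890 reads in MHC403 and 18248 in WT. It was 1.53-fold lower (1.496 to 1.57), a log2 ratio of -0.61 that became -1.16 with median-of-ratios scaling. Its deficit was smaller than that of Myl2. Myl3 supplied 24.8% of the reads of the Myl2 and Myl3 pair in MHC403 (24.4 to 25.2) and 17.4% in WT (17.2 to 17.6), and the ratio of Myl3 to Myl2 was 1.56-fold higher in MHC403 (1.52 to 1.60) under any scaling. Both genes have 1 annotated start and 400 bases of counting window, so their levels can be set side by side. Myl2 had 3.04 reads per read of Myl3 in MHC403 and 4.74 in WT.

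**Figure D2:**
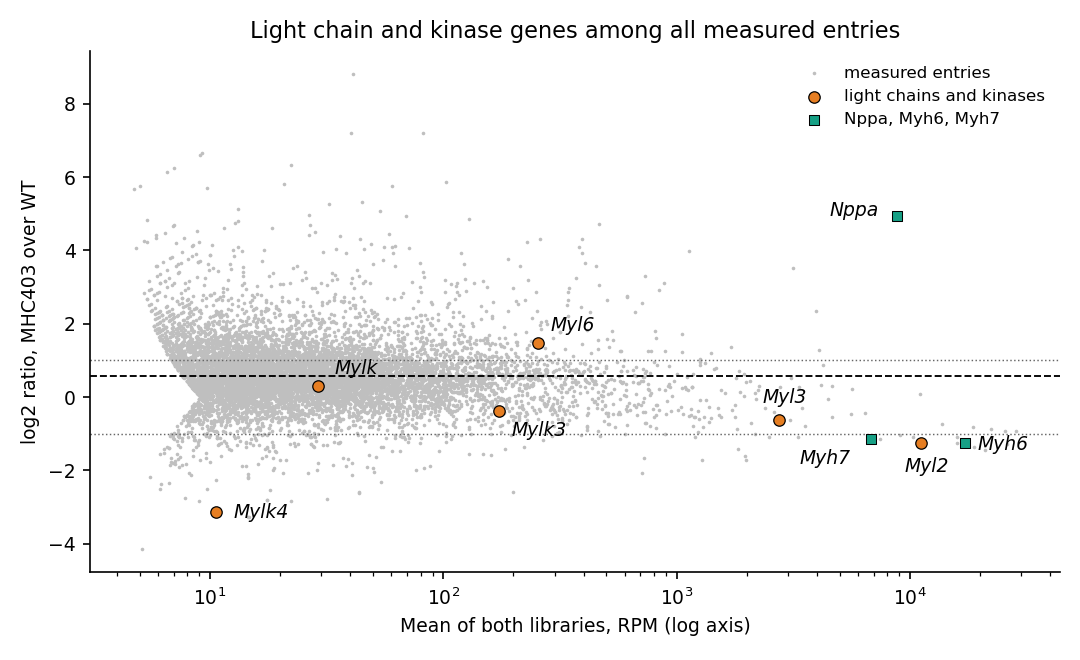
Log2 ratio of MHC403 over WT against the mean of both libraries in RPM (log axis) for the 9507 measured entries (grey); orange circles are the 6 measured light chain and kinase genes, green squares Nppa, Myh6 and Myh7, the dashed line the median of all entries (0.57) and dotted lines 2-fold. Myl2 lies beside Myh6 at -1.26 and -1.27, Myl6 lies above the upper dotted line at 1.47, and Mylk4 is near the lower edge at -3.13.

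The atrial light chain genes had few reads in both libraries, beside a large excess of the atrial natriuretic peptide gene in MHC403. Myl7, the atrial regulatory light chain (chromosome 11, 5796640 to 5798785), had 31 reads in MHC403 and 27 in WT. Myl4, the atrial and embryonic essential light chain (chromosome 11, 104411977 to 104448533), had 24 reads in MHC403 and 19 in WT. Both were under the minimum of 50 reads, and their ratios were 1.15 (0.665 to 2.00) and 1.27 (0.665 to 2.44). At this depth a difference between the libraries was not detectable for either gene, and the direction flipped with median-of-ratios scaling, to log2 ratios of -0.35 and -0.21. Nppa, the atrial natriuretic peptide gene, had 92851 reads in MHC403 and 3017 in WT, 30.8-fold higher (29.7 to 32.0).

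Within each ventricular and atrial pair, the atrial share of reads was higher in MHC403, where the atrial reads were close to those in WT and the ventricular reads were lower. Myl7 supplied 0.0858% of the Myl7 and Myl2 reads in MHC403 (0.0583 to 0.122) and 0.0312% in WT (0.0206 to 0.0454). The ratio of Myl7 to Myl2 was 2.75-fold higher in MHC403 (1.59 to 4.79). Myl4 supplied 0.201% of the Myl4 and Myl3 reads in MHC403 (0.129 to 0.300) and 0.104% in WT (0.0626 to 0.162), and the ratio of Myl4 to Myl3 was 1.94-fold higher (1.02 to 3.74). The balance of Myl4 and Myl7 themselves was 43.6% Myl4 in MHC403 and 41.3% in WT, with intervals that overlapped.

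Of 15 atrial myocyte markers, 8 were measured, of which 3 were at least 2-fold higher (Nppa, Dkk3 and Pam), 0 were lower and 5 were within 2-fold. Their median log2 ratio was 0.46, below the 0.57 of all measured entries, of which 26.1% were higher and 2.43% lower by 2-fold. The list summed to 17930 RPM in MHC403 and 1011 in WT, nearly all of it Nppa. Dkk3, a secreted Dickkopf-family protein, had 92 reads in MHC403 and 7 in WT, and Pam, the peptide-amidating enzyme of atrial granules, was 2.37-fold higher (2.24 to 2.50). Sarcolipin, Sln, an atrial inhibitor of the calcium pump, had 2 reads in MHC403 and 3 in WT. The atrial myosin-binding protein gene Mybphl had 0 reads in MHC403 and 5 in WT, where 0 allows up to 3. Bmp10 and Fgf12 were at 0 in both libraries. Median-of-ratios scaling left 2 of the 8 higher and 1 lower, beside 10.9% and 7.59% of all measured entries. Of 8 ventricular markers, 5 were measured and all 5 lay within 2-fold under both scalings, with a median of 0.39, while Hand1 was at 0 in both libraries. Irx4, a ventricular homeobox factor, had 77 reads in MHC403 and 70 in WT.

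Myl1, the essential light chain of fast skeletal muscle (chromosome 1, 66970870 to 66991630), had 21 reads in MHC403 and 14 in WT, a ratio of 1.503 (0.729 to 3.20). Of the words in its first 400 bases, 16.4% occur in the pseudogene Mylf-ps. The interval spans 1, so no difference was detectable. Of 18 skeletal muscle markers, 7 were measured, of which 2 were higher and 5 lower by 2-fold or more under both scalings, with a median log2 ratio of -1.36. Casq1, the calcium store protein calsequestrin 1, was 4.83-fold higher (3.03 to 8.03) and the fast myosin-binding protein gene Mybpc2 3.03-fold higher (2.43 to 3.81). The fast heavy chain genes Myh1 and Myh4 were 3.59-fold (2.79 to 4.66) and 2.97-fold (2.43 to 3.65) lower, and they share 9.69% and 22.7% of such words with other genes. The fast regulatory light chain gene Mylpf had 3 reads in each library, and Ryr1, Myod1, Myf6 and Mybpc1 were at 0 in both. The list summed to 149 RPM in MHC403 and 208 in WT.

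Myl6, the essential light chain of smooth and non-muscle myosin (chromosome 10, 127927917 to 127930881), had 2047 reads in MHC403 and 740 in WT. It was 2.77-fold higher (2.55 to 3.02), or 0.92 on the log2 scale with median-of-ratios scaling, within 2-fold. Of the words in its first 400 bases, 24.3% occur in other transcripts, among them the pseudogenes Gm5526, Gm10080 and Gm8894, so its count is uncertain. The ratio of Myl6 to Myl2, which no scaling alters, was 6.63-fold higher in MHC403 (6.09 to 7.23).

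The other measured light chain genes were higher as well. Of 6 further light chain genes with an entry, Mylpf and Myl10 among them, 4 were measured. All 4 were higher by 2-fold or more, with a median log2 ratio of 1.58, and 2 of them were so under median-of-ratios scaling. Of all measured entries, 26.1% and 10.9% were that much higher under these scalings. Myl9, the smooth muscle regulatory chain, was 3.79-fold higher (3.13 to 4.62), with 507 reads in MHC403 and 134 in WT. Myl6b, a further essential chain that neighbours Myl6, had 108 reads in MHC403 and 26 in WT, 4.16-fold higher (2.69 to 6.66). Myl12b was 2.16-fold higher (2.00 to 2.34), and 2900073G15Rik, described in the table as regulatory chain B-like, 2.35-fold higher (2.26 to 2.45). These last genes share 25.7% and 22.4% of such words with other genes, each other among them.

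With column totals, most measured fibroblast, smooth muscle and macrophage markers were at least 2-fold higher in MHC403, beside 26.1% of all measured entries. Of 8 fibroblast markers 6 were higher by at least 2-fold, and the list summed to 3225 RPM in MHC403 and 466 in WT. Of 7 measured smooth muscle markers of 10, 4 were higher, summing to 658 RPM in MHC403 and 316 in WT, and Myl9 is in this list too. Of those under the minimum, Actg2 had 14 reads in MHC403 and 0 in WT, and Cnn1 had 21 and 12. Lmod1 went the other way, with 17 reads in MHC403 and 45 in WT. Of 6 macrophage markers 5 were higher, summing to 288 in MHC403 and 106 in WT. All 7 endothelial markers lay within 2-fold, at 502 in MHC403 and 417 in WT. None of the fibroblast, macrophage or endothelial markers was at 0. Median-of-ratios scaling left 5 fibroblast, 3 smooth muscle and 2 macrophage markers higher and 1 endothelial marker, Kdr, lower. Of all measured entries, 10.9% were higher and 7.59% lower by 2-fold under that scaling. The part of these cells in the Myl6 result was not tested.

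**Figure D3:**
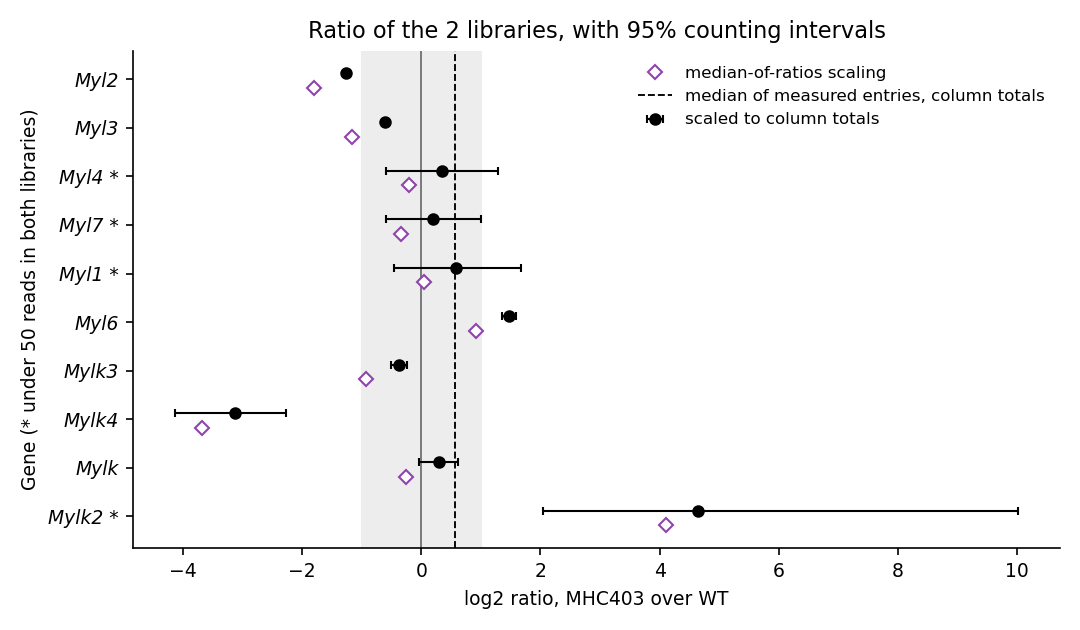
Log2 ratio of MHC403 over WT for the 10 genes, scaled to column totals (black, with exact 95% counting intervals) and with median-of-ratios scaling (open diamonds); grey marks the range within 2-fold, the dashed line the median of measured entries, and asterisks genes under 50 reads in both libraries. Myl2 and Mylk4 lie below the grey range under both scalings, Myl3 only with median-of-ratios scaling, and Myl6 lies above it only with column totals.

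Log2 ratios of the kinase genes spanned -3.13 (Mylk4) to 4.65 (Mylk2), and those of the light chain genes -1.26 (Myl2) to 1.47 (Myl6). Mylk3, the cardiac kinase (chromosome 8, 87848828 to 87904877), had 823 reads in MHC403 and 1071 in WT and was 1.30-fold lower (1.18 to 1.42). Its log2 ratio of -0.38 became -0.92 with median-of-ratios scaling, within 2-fold in both cases. Per read of its substrate gene there was more of it: the ratio of Mylk3 to Myl2 was 1.84-fold higher in MHC403 (1.68 to 2.02).

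Mylk4, a further kinase of the family (chromosome 13, 32792696 to 32873648), had 12 reads in MHC403 and 105 in WT. It was 8.73-fold lower (4.79 to 17.4), and 3 of the 9507 measured entries had a lower ratio. Mylk4 reached the minimum of 50 reads in WT alone, the library where it is high. Its place among measured entries is therefore a description and carries no further weight. It had the fewest reads of the 6 measured genes. The ratio of Mylk4 to Mylk3 in MHC403 was 0.149 times that in WT (0.0740 to 0.273). Mylk4 supplied 1.44% of the reads of this pair in MHC403 and 8.93% in WT. It has 1 annotated start and its windows overlap those of no other entry.

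Mylk, the smooth muscle and non-muscle kinase gene (chromosome 16, 34785036 to 35002520), whose last start gives telokin, a short product without kinase activity, had 175 reads in MHC403 and 143 in WT. Its ratio was 1.23 (0.978 to 1.54), and with median-of-ratios scaling its direction flipped, to a log2 ratio of -0.25. The table pools the reads of its 3 annotated starts, and its windows overlap those of an entry named Mlyk. Mylk2, whose entry is described as skeletal/cardiac (chromosome 2, 152737088 to 152748801), had 25 reads in MHC403 and 1 in WT. Its ratio was 25.1 (4.10 to 1029), from few reads and under the minimum. The skeletal marker Tnnt3, a fast troponin T that is also under the minimum, had 24 reads in MHC403 and 1 in WT. Of the 7 measured skeletal markers, 5 went the other way by 2-fold or more and 2 were higher.

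Set per base of counting window, the order of the kinases changed between the libraries. In MHC403 it was Mylk3 at 188 RPM per kilobase of window, Mylk at 26.7, Mylk2 at 11.4 and Mylk4 at 5.49. The counting intervals of Mylk2 and Mylk4 overlapped there, and no other neighbours in the order of kinases overlapped in either library. In WT it was Mylk3 at 244, Mylk4 at 47.9, Mylk at 21.7 and Mylk2 at 0.456, the last from 1 read. The place of Mylk4 above Mylk in WT rests on dividing by windows of 400 and 1200 bases. Without that division Mylk stood above Mylk4 in WT too, at 26.1 and 19.2 RPM, with counting intervals that overlapped. Among light chains Myl2 stood highest in both libraries, at 16503 in MHC403 and 39468 in WT, followed by Myl3 at 5436 in MHC403 and 8323 in WT, and then by Myl6 at 708 in MHC403 and 255 in WT. Myl7, Myl4 and Myl1 lay between 4.80 and 14.2 in MHC403 and between 3.19 and 12.3 in WT. In that order the intervals of neighbours among these light chain genes overlapped in both libraries.

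Genes that set light chain phosphorylation were near the middle of all entries. Of 15 such genes, 13 were measured, of which 3 were higher by 2-fold or more and 0 lower, with a median log2 ratio of 0.56 beside 0.57 for all measured entries. Ppp1r14b, a phosphatase inhibitor, was 3.48-fold higher (2.79 to 4.37), with 361 reads in MHC403 and 104 in WT, but 30.7% of its words occur elsewhere, in pseudogenes among others. Ppp1r12c, a targeting subunit of myosin phosphatase, was 2.34-fold higher (1.93 to 2.84). Calm3, a calmodulin gene, was 1.92-fold higher (1.75 to 2.11), within 2-fold. With median-of-ratios scaling 1 of the 13 passed 2-fold, Ppp1r14b. The shares of all measured entries were 26.1% higher and 2.43% lower with column totals, and 10.9% and 7.59% with median-of-ratios scaling.

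Of 9 thick filament partners, 7 were measured, of which 0 were higher and 3 lower by at least 2-fold under both scalings, the heavy chain genes Myh6, Myh7 and Myh7b. Myh7, the beta heavy chain, had 23161 reads in MHC403 and 51258 in WT and was 2.21-fold lower (2.17 to 2.24), though 11.9% of its words are shared with Myh6. Myh7b, a further myosin heavy chain gene, was 3.96-fold lower (3.34 to 4.71). Myom1, the M-band protein myomesin, was 1.36-fold higher (1.30 to 1.43) with column totals and -0.10 on the log2 scale with median-of-ratios scaling.

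**Figure D4:**
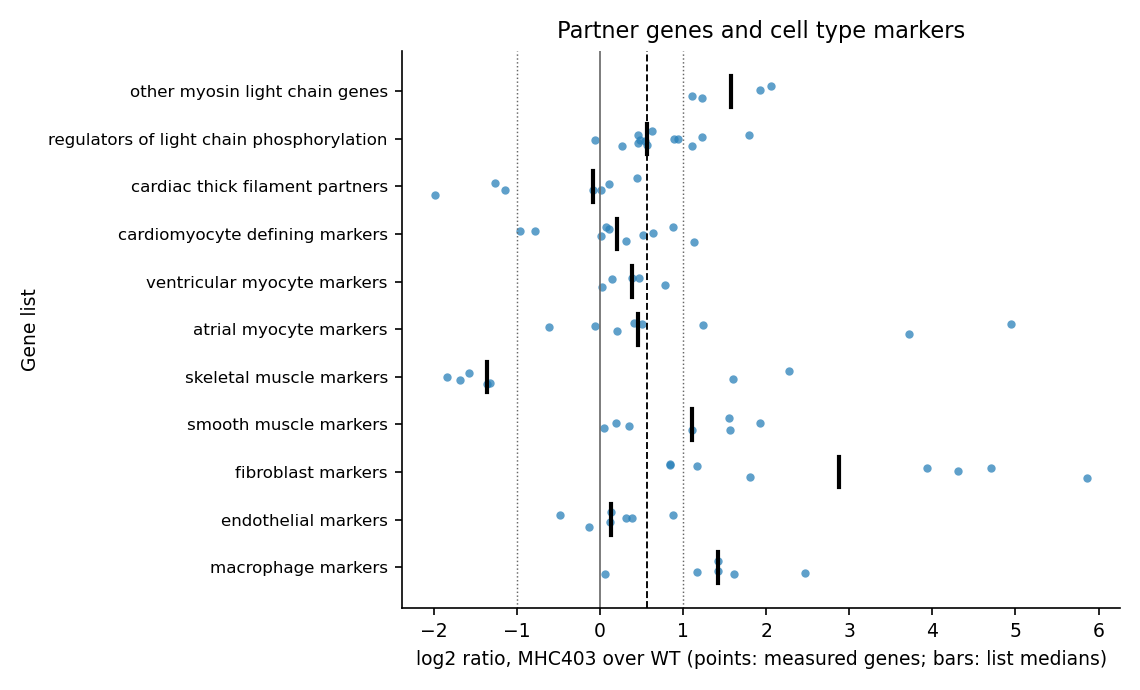
Log2 ratio of MHC403 over WT, scaled to column totals, of the measured genes (points) of each list, with list medians as black bars, the median of all measured entries as a dashed line and 2-fold as dotted lines. Other light chain genes have a median of 1.58, regulators of light chain phosphorylation lie at the dashed line with 0.56, and thick filament partners lie below it at -0.08.

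The authors deposited a start-site score per entry, a whole number, and the sources used here give no formula for it. In the authors' deposited table, Myl2 has a score of 41 and Mylk3 a score of 23, and the other 8 genes have 0. Of the 10483 entries with at least 20 reads in both libraries, 34.7% have a score above 0, with a median of 8 among those, and no entry below that depth has one. Of the 10 genes, 6 reach that depth. Myl2 is among the 164 entries with a score of at least 41 and Mylk3 among the 692 with at least 23 in the authors' deposited table. Mylk3 has 2 annotated starts, at 87904877 and 87889223 on mm9, and Myl2 has 1, at 122550989. With 1 read count per gene in the table, the reads cannot be divided between starts.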

How the data were processed

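5′RNA-seq of heart RNA was analysed from 1 table with 1 library per genotype, grouped by the genotype label. Trizol extracts of intact polyA RNA were sequenced without fragmentation, per the labels' protocols. TopHat 1.0.14 and mm9 are named in the submitters' processing notes, and the sources used here name no counting program and no use of strand. The table holds counts of reads for each entry and library, deposited by the authors without normalization, per the file headers. They also deposited normalized reads (RPM per entry), the fold of MHC403 over WT as a ratio, a p-value and a score. The authors' deposited p-values were not used, because their test is not given and they compare single libraries.

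Counts were scaled to column totals, and the ratio of MHC403 over WT was given with its 95% exact interval conditional on the reads of the entry in both libraries (scipy 1.17.1). These ratios match the authors' deposited fold. Ratios of 2 genes between libraries carry the conditional interval of the odds ratio. Entries that reached 50 reads in one or both libraries were called measured, and 0 reads were read as allowing 3 counts. Amplified reads carry no molecular identifiers here. Size factors came from DESeq2 1.42.0 and TMM factors from edgeR 4.0.16. No fit or test across genotypes was made. Interval and call steps were tested on simulated counts with counting error alone, so spread between animals or from amplification was not tested. Genes of 11 lists were named, up to 4 each, by the counting interval's nearer bound being farthest from 1. For 1 gene so chosen, values are not reported here. The members and lists were chosen with earlier results of these data known. Tnnt3, Sln, Mybphl, Mylpf, Actg2, Cnn1, Lmod1 and listed genes at 0 were named after their values were seen. Shared words were 36 bases long, in the first 400 bases of GENCODE M21 transcripts. Starts are 1-based.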

Additional observations from a re-analysis of the deposited data

How the results depend on the processing

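Median-of-ratios, TMM, non-mitochondrial and top-50-removed scaling lower every log2 ratio by at most 0.55, so no member past 2-fold could change direction. Mylk, Myl4 and Myl7, all within 2-fold, did change direction with median-of-ratios and TMM scaling. Entries at least 2-fold higher, 2483 with column totals, numbered 1033 with median-of-ratios scaling, 1040 with TMM, 1528 without entries on the mitochondrial chromosome and 1257 without the 50 highest entries. They numbered 989 with a minimum of 200 reads, 4786 with no minimum and 4666 at 1.5-fold. Entries at least 2-fold lower, 231 with column totals, numbered 722, 718, 400 and 542 under the same scalings in that order, 357 with a minimum of 20 reads, 100 with 200, 736 with no minimum and 534 at 1.5-fold. Of the members, 1 was higher with column totals, 0 with median-of-ratios and TMM scaling, and 2 with a minimum of 20 reads or none, which admits Mylk2. With a minimum of 200 reads 1 member was lower in place of 2, since Mylk4 falls under it. Listed genes that were higher numbered 27, or 16 with median-of-ratios and TMM scaling and 17 without the 50 highest entries, and those that were lower 8, or 12 with median-of-ratios and TMM scaling, 11 without the 50 highest entries, with no minimum or at 1.5-fold, and 5 with a minimum of 200 reads. Except where a minimum admits or removes genes or the threshold differs, these counts move because each scaling shifts all ratios by 1 amount. Depth limits Myl1, Myl4, Myl7 and Mylk2, at 31 reads or fewer. No paired analysis was possible because each genotype has 1 library.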
